A study of Homo sapiens with 96 samples.

Results

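Transcripts of 42 genes of mitotic cell division were followed across 30 exposure groups of LAPC4, a line of human prostate cancer cells, on 96 Illumina HT-12 v4 arrays. The 42 genes are the mitotic kinases, cyclins and their regulators, kinesins, and kinetochore, checkpoint, spindle and anaphase genes of a written list, found by symbol in the platform annotation. They are 42 of 18571 genes tested, and each was read from its probe with the highest mean over all arrays.

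All cells were exposed for 6 h. The vehicle group had DMSO at 0.05%, and the R1881 group had the synthetic androgen R1881 at 0.33 nM. Every chemical group also carried R1881 at 0.33 nM, so the chemicals were never given alone and R1881 is the control for each of them. Those at 20 uM were Apigenin, Atrazine, Bicalutamide, BisphenolA, Cyproterone acetate, DDE, Dehydroepiandrosterone, Fenitrothion, Finasteride, Flutamide, Hydroxyflutamide, Iprodione, Linuron, Prochloraz, Procymidone, Spironolactone, Tebuconazole and Vinclozolin. Androstenedione, Dexamethasone, Mifepristone, Progesterone and Triticonazole were at 10 uM. Dihydrotestosterone, MethylTestosterone, Norethindrone, Testosterone propionate and Trenbolone were at 0.5 uM. DMSO and R1881 had 6 arrays each and the chemicals 3 each. Chemicals compared with R1881 share its 6 arrays. The title of the series asks which of the chemicals modulate the androgen receptor. The design text speaks of 3 experiments on separate days, but the labels do not tie an array to a day or say what sets control arrays 1b to 3b apart from 1 to 3, so p-values measure the spread between these arrays, which may be partly technical.

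Before division a cell accumulates cyclins that activate CDK1, and the active kinase drives chromosome condensation and spindle assembly. Kinetochores then tie chromosomes to spindle microtubules, a checkpoint delays anaphase until all are attached, and the anaphase-promoting complex (APC/C) tags cyclins and securin for destruction so that sister chromatids part. Most of these transcripts rise in G2 and mitosis, and many of their promoters carry a cell cycle homology region (CHR), bound by MuvB complexes such as DREAM and the FOXM1 complex, together with CCAAT boxes bound by NF-Y. In a bulk sample, fewer cells in mitosis and less of a transcript per cell cannot be told apart.

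The promoters of 35 of the 42 genes matched a RefSeq entry (GRCh38.p14), each a window of 300 bases from 250 before to 50 after the gene's start. The CHR letters searched were TTTGAA on either strand and TTCGAA, which is its own reverse complement, and the CCAAT letters were searched on both strands. Of the 35 windows, 26 (74.3%) held a CHR match, against 5742 of 35116 windows of all genes (16.4%). A CCAAT match was found in 27 (77.1%), against 12155 (34.6%) of all, and both were found in 22 (62.9%), against 6.38% of all. The letters are not particular to these members. In 52 windows of a second list of mitotic genes, described below, the shares were 63.5% for CHR, 63.5% for CCAAT and 42.3% for both. Of the windows with a CHR match, the 5 of highest moderated F, a test given below, are shown. Each of them also holds a CCAAT match, and the capitals mark the CHR and CCAAT matches on either strand. They lie at chr2:26785806-26786105 for CENPA, chr1:214602945-214603244 for CENPF, chr10:92592880-92593179 for KIF11, chr1:43358731-43359030 for CDC20 and chr15:59104896-59105195 for CCNB2, all on the plus strand.
CENPA: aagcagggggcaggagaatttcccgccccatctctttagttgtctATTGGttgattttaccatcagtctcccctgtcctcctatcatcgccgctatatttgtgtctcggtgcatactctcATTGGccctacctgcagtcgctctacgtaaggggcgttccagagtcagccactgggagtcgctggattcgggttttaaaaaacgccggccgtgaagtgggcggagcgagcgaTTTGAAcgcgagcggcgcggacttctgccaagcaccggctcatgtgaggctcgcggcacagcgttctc
CENPF: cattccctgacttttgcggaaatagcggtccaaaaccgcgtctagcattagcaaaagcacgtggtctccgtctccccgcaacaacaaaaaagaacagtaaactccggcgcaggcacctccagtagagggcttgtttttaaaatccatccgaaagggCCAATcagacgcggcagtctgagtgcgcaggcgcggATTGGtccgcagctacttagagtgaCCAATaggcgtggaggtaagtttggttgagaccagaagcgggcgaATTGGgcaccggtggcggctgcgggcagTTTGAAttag
KIF11: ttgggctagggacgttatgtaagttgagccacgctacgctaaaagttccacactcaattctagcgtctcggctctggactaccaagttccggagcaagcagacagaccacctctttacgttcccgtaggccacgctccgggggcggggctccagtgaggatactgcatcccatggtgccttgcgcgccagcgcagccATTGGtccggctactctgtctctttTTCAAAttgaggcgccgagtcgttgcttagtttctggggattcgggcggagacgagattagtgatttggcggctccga
CDC20: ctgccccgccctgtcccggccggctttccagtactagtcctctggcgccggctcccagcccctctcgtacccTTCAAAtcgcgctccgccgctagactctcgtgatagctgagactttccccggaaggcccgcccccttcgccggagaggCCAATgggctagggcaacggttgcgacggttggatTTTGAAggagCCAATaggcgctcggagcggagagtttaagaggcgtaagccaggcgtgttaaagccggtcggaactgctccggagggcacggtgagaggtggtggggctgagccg
CCNB2: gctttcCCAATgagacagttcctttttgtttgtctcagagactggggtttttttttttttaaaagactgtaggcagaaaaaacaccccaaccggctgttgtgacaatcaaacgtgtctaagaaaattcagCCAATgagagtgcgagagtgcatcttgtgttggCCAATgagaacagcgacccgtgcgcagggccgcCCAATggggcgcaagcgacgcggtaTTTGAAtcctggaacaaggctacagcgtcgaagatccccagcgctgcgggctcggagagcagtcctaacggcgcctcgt
The CENPA window holds its CHR letters 18 bases before the start and 2 CCAAT matches further upstream, and the CDC20 window holds 2 CHR and 2 CCAAT matches. The windows of CDC25B and CENPE hold neither set of letters. A match is a description of the letters, not a measured binding site.

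Arrays stood apart in ways the groups do not describe. By k-means on the 1000 most variable genes, 5 of which are members (CDK1, MAD2L1, ECT2, DLGAP5 and CKS2), 34 arrays shared a profile A and 62 a profile B. Arrays numbered 2 were all of profile B. Against the median of their own profile, 6 arrays correlated at 0.909 or lower and all others at 0.944 or higher: Trenbolone array 2 (0.362), Spironolactone array 2 (0.489), Testosterone propionate array 2 (0.765), MethylTestosterone array 2 (0.841), Flutamide array 3 (0.860) and Apigenin array 2 (0.909). Markers of luminal prostate cells, averaged 9.06 to 9.97 on the log2 scale in the other 90 arrays but 7.40 in Spironolactone array 2 and 7.21 in Trenbolone array 2. The averages of the basal markers were 6.56 and 6.63 in these 2 arrays (6.79 to 7.74 in the 90), of the stromal markers 7.23 and 6.76 (6.78 to 7.13), of the immune markers 7.53 and 6.97 (6.70 to 7.46), of the endothelial markers 6.73 and 7.01 (6.56 to 7.55) and of the neuroendocrine markers 7.62 and 6.71 (6.97 to 7.71). Their part in the results below was not tested. Each comparison was therefore fitted on all 96 arrays and without array 2 of Spironolactone and of Trenbolone. Another fit took the 90 arrays with the profile as a term of the model. The pairs of related chemicals are given from all 96 arrays only. Differences are on the log2 scale with a standard error (SE) from limma, and a gene is called at an adjusted p under 0.05, with Benjamini-Hochberg adjustment over all 18571 genes.

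The mean of the 42 genes was lowest under Spironolactone and Trenbolone when all arrays were used, and 1 array of each set that place. It was 9.34 ± 0.10 (SD, n = 6) in DMSO and 9.19 ± 0.15 (SD, n = 6) in R1881. Spironolactone averaged 8.48 ± 1.07 (SD, n = 3), with arrays at 9.07, 7.25 and 9.13, and Trenbolone arrays were at 9.28, 7.33 and 9.17. Without the 6 arrays that stood apart, Spironolactone averaged 9.10 and Trenbolone 9.23, and the lowest group was Mifepristone at 8.97 ± 0.05 (SD, n = 3). The highest groups were Tebuconazole, Bicalutamide and Procymidone, each at 9.36, which lies inside the range of the R1881 arrays (9.01 to 9.38). The 90 arrays spanned 8.86 to 9.54 with a median of 9.25, so neighbouring groups in this order did not differ beyond the spread of the control arrays. The plot of the mean by array shows this order.

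**Figure D1:**
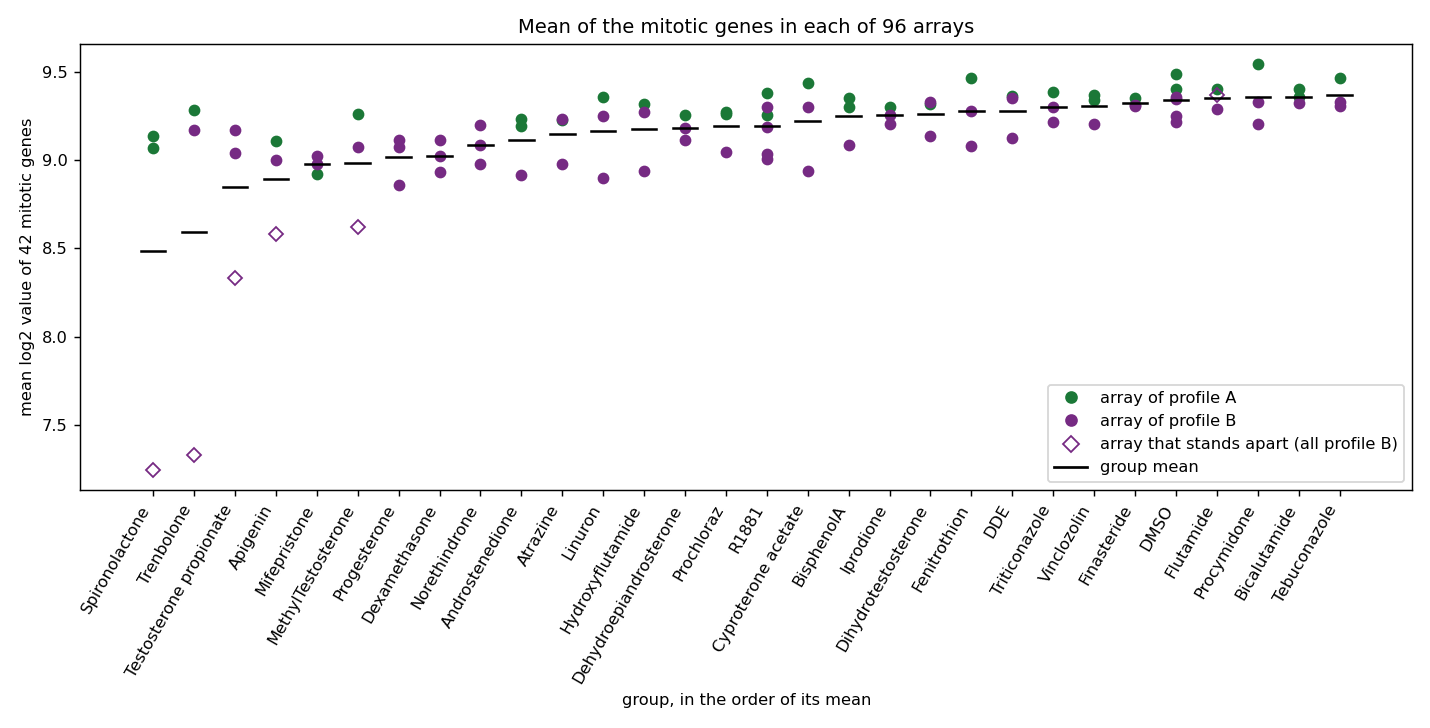
Mean log2 value of the 42 mitotic genes in each array (vertical axis) by group, with groups ordered by their mean; green points are arrays of profile A, purple points of profile B, open diamonds the 6 arrays that stood apart, and bars group means. Spironolactone array 2 (7.25) and Trenbolone array 2 (7.33) lie far below the 90 other arrays, which span 8.86 to 9.54.

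A moderated F test over the 29 differences between groups asked which members varied at all. With all arrays it called CENPA (adjusted p = 0.00391) and BUB3 (adjusted p = 0.0186), 2 of 42, where 1.21% of all genes were called. In the 90 arrays it called 10 of 42, against 5.24% of all genes. These were CCNB2, CCNA2, AURKA, BUB3, CENPA, CENPE, KIF11, KIF20A, KIF2C and CDC25B, which include cyclins, a spindle pole kinase, kinetochore genes, motors and a phosphatase. Without array 2 of Spironolactone and of Trenbolone it called CCNB2, CENPA and CDC25B, where 1.54% of all genes were called.

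Addition of R1881 to the vehicle left most members slightly lower, by less than the test could call with all arrays. Of 42 members, 35 were lower in R1881, with a median difference of -0.17 and a range of -0.46 to 0.16, while the median over all genes was near 0.00. With all arrays limma called 0 members, and 0 reached an unadjusted p under 0.05, where 0.124% of all genes were called. By array number, the R1881 array minus the DMSO array of the same number gave a mean over members of -0.18, -0.04 and -0.14 for numbers 1 to 3 and -0.24, -0.17 and -0.10 for 1b to 3b. The mean was thus lower in R1881 for all 6 numbers, and 7 members were lower for every number: BIRC5, CCNB2, CDC20, CDC25B, CDC25C, CDCA3 and KIF4A. Within profile A (2 arrays against 2) 27 members were lower, with a median of -0.14, and within profile B (4 against 4) 37 were, with a median of -0.18.

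CDC25B and CCNB2 were the members called lower under R1881 in the 90 arrays, where 0.985% of all genes were called and 0.248% were called lower. CDC25B, a phosphatase that removes inhibitory phosphates from CDK1, was at 10.52 to 10.77 in the DMSO arrays (median 10.63) and at 10.04 to 10.32 in the R1881 arrays (median 10.15). Every R1881 array was below every DMSO array. The difference was -0.46 (SE 0.09, adjusted p = 0.000459), and with all arrays it was also -0.46 but with an SE of 0.30 and an interval of -1.07 to 0.14. CCNB2, the B-type cyclin found mainly at the Golgi, was at 10.17 to 10.46 in DMSO (median 10.31) and at 9.67 to 10.18 in R1881 (median 9.88). Its groups overlapped only by the lowest DMSO and the highest R1881 array, and the 90-array difference was -0.40 (SE 0.10, adjusted p = 0.0144). CDC25C, the sister phosphatase, was at 7.69 to 7.96 in DMSO and at 7.09 to 7.61 in R1881 on the probe used, again without overlap. On its other kept probes the groups overlapped. One was at 7.26 to 7.77 in DMSO and 7.34 to 7.54 in R1881, and another at 7.12 to 7.92 and 6.77 to 7.81. On the probes used, CDC25B and CDC25C were the 2 of 42 members without overlap in this direction. That pattern was met by 0.199% of all genes, and CDC25C was not called in any of the 3 fits.

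Spironolactone, a steroidal mineralocorticoid antagonist that also binds the androgen receptor, gave the most called members with all arrays. In the 90 arrays Apigenin had 8 and Spironolactone 7, and without both arrays 2 each had 5. With all arrays 15 of 42 fell and 0 rose, where 17.7% of all genes were called and 9.88% were called lower, and 37 members were lower with a median difference of -0.70 (all genes -0.04), which cyclic loess between arrays turned to 0.02. Those 15 came from most roles: CDC20 and UBE2C of anaphase and exit, AURKA, AURKB and PLK1 of the kinases, CENPA and CENPF of the kinetochore, CCNA2, CCNB2 and CDC25B of the cyclins and CDK1 regulators, KIF11 and KIF20A of the kinesins, BUB3, PRC1 and TOP2A. Without array 2 of Spironolactone and of Trenbolone, 4 remained lower (CENPF, CENPA, BUB3 and UBE2C) and CDC25C was called higher, where 2.35% of all genes were called and 1.46% were called lower, and the median was -0.12. In the 90 arrays 6 were lower (CENPA, CENPF, CDC20, BUB3, UBE2C and AURKA) and CDC25C was higher, where 8.74% of all genes were called and 5.08% were called lower, with a median of -0.26.

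The scaling of the arrays also bears on this comparison. With cyclic loess 21 of 42 members were lower under Spironolactone, and 7 members were called lower (CDC20, AURKA, BUB3, CENPA, CENPF, PRC1 and UBE2C) and 3 higher (BIRC5, HMMR and CDC25C). Over all genes that scaling called 460 lower and 1925 higher, against 1834 lower and 1448 higher in the deposited values. Under Trenbolone it called 13 genes lower and 1106 higher, against 675 and 1213.

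The largest differences under Spironolactone with all arrays were in CDC20, which activates the APC/C, and UBE2C, the ubiquitin-conjugating enzyme of that complex. CDC20 was at 10.33 to 11.68 in R1881 (median 10.93) and at 9.43, 8.09 and 9.65 in Spironolactone arrays 1 to 3, so all 3 were below all R1881 arrays. It fell by 1.90 (SE 0.40, adjusted p = 0.000657), which is 3.74-fold, and by 0.84 in the 90 arrays (SE 0.24, adjusted p = 0.0153). CDC25C was at 8.37 and 8.22 in arrays 1 and 3, above all R1881 arrays, and at 6.62 in array 2, below all of them. Its difference was 0.81 without array 2 (SE 0.19, adjusted p = 0.00734) and 0.82 in the 90 arrays (SE 0.14, adjusted p = 2.53e-05). In 10 of 42 members all 3 arrays lay below all 6 R1881 arrays, a pattern met by 9.47% of all genes, and in 1, HMMR, all lay above (1.65% of all genes). Both kept arrays were of profile A, and against the 2 R1881 arrays of that profile 31 members were lower, with a median of -0.25.

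**Figure D2:**
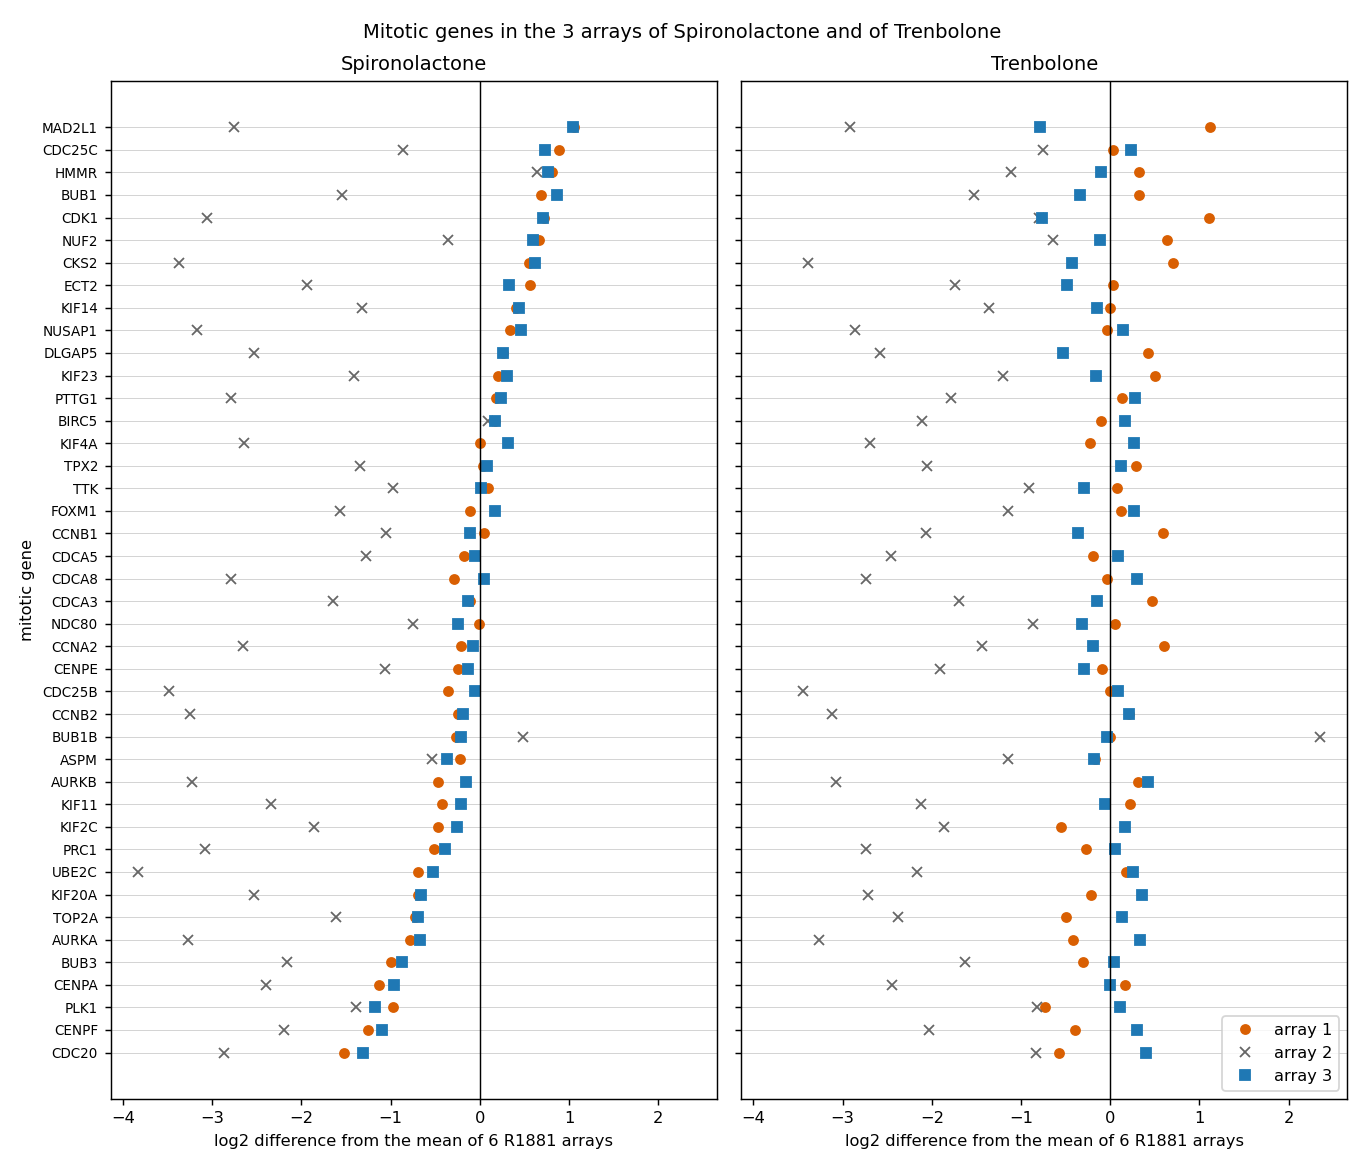
Difference of each array of Spironolactone (one panel) and of Trenbolone (other panel) from the mean of the 6 R1881 arrays, on the log2 scale, for each of the 42 genes; the marks stand for arrays 1, 2 and 3. Array 2 has a median over the genes of -2.05 for Spironolactone and -1.97 for Trenbolone, while arrays 1 and 3 scatter around 0 for Trenbolone and keep a few low genes for Spironolactone. The values are as deposited, and cyclic loess between arrays brings the group medians to 0.02 and -0.02.

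The 8 members with the highest moderated F were CENPA, BUB3, CENPE, CENPF, CDC25B, UBE2C, AURKA and KIF11, and their values by array are given next for the controls and for 4 chemicals. CENPA, the histone variant that marks centromeres, was at 9.02 to 9.40 in DMSO (median 9.19) and at 8.84 to 9.16 in R1881 (median 9.0). Apigenin arrays 1 to 3 were at 8.14, 6.67 and 8.02 and Mifepristone arrays at 8.82, 8.82 and 8.69. Spironolactone arrays were at 7.86, 6.60 and 8.03 and Trenbolone arrays at 9.17, 6.55 and 8.99. All arrays of Apigenin, Mifepristone and Spironolactone were below all R1881 arrays, and of Trenbolone only array 2 was. CENPA fell by 1.5 under Spironolactone with all arrays (SE 0.31, adjusted p = 0.000437) and by 1.17 in the 90 arrays (SE 0.10, adjusted p = 9.44e-14). Under Apigenin it fell by 1.39 (SE 0.31, adjusted p = 0.00518) and by 0.95 in the 90 arrays (SE 0.10, adjusted p = 5.93e-11). These values are from 1 probe. The other kept CENPA probe, with a mean of 7.74, was at -0.24 under Spironolactone with all arrays. That probe was not called under Spironolactone, Trenbolone or Apigenin in any fit.

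CENPE, the kinetochore motor that carries chromosomes to the spindle equator, was at 8.49 to 8.92 in DMSO (median 8.72) and at 8.25 to 9.15 in R1881 (median 8.51). In Apigenin it was at 7.87, 6.88 and 8.17, and in Mifepristone at 8.22, 8.17 and 7.96. Spironolactone arrays were at 8.30, 7.48 and 8.41 and Trenbolone arrays at 8.46, 6.64 and 8.26. Apigenin and Mifepristone lay below all R1881 arrays, while of Spironolactone and Trenbolone only array 2 did. Under Apigenin CENPE fell by 0.91 with all arrays (SE 0.24, adjusted p = 0.0333) and by 0.58 in the 90 (SE 0.13, adjusted p = 0.00152). Under Mifepristone it fell by 0.44 in the 90 (SE 0.11, adjusted p = 0.0459). The other kept CENPE probe was not called under Spironolactone, Trenbolone or Apigenin in any fit. Under Spironolactone with all arrays it was at -0.26, against -0.49 for the probe used. CENPF, a large kinetochore protein that builds up in G2, was at 8.50 to 9.46 in DMSO (median 9.17) and at 8.60 to 9.20 in R1881 (median 8.90). Apigenin arrays were at 8.21, 8.47 and 8.20, Mifepristone arrays at 7.85, 8.90 and 9.04, Spironolactone arrays at 7.66, 6.71 and 7.82 and Trenbolone arrays at 8.51, 6.88 and 9.21. All Apigenin and all Spironolactone arrays were below all R1881 arrays, and Trenbolone array 3 was just above them. CENPF fell under Spironolactone by 1.52 with all arrays (SE 0.29, adjusted p = 0.000212), by 1.18 without both arrays 2 (SE 0.29, adjusted p = 0.011) and by 0.88 in the 90 arrays (SE 0.20, adjusted p = 0.0017).

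BUB3, which carries the checkpoint kinases BUB1 and BUB1B to kinetochores, was at 11.51 to 12.16 in DMSO (median 11.55) and at 11.54 to 12.08 in R1881. Apigenin arrays were at 11.12, 10.94 and 10.63 and Mifepristone arrays at 11.29, 11.57 and 12.16. Spironolactone arrays were at 10.81, 9.64 and 10.93 and Trenbolone arrays at 11.50, 10.17 and 11.84. Apigenin and Spironolactone lay below all R1881 arrays without overlap. BUB3 fell by 1.34 under Spironolactone (SE 0.22, adjusted p = 1.42e-05) and by 0.91 under Apigenin (SE 0.22, adjusted p = 0.0148). This rests on 1 probe. The other 3 kept BUB3 probes, with means of 6.68 to 8.48, were not called under Spironolactone, Trenbolone or Apigenin, nor between R1881 and DMSO, in any of the 3 fits. One of them was 1.39 higher under Spironolactone with all arrays, 0.53 higher without both arrays 2 and at -0.32 in the 90 arrays. With the mean of all BUB3 probes the Spironolactone difference was -0.06 with all arrays (adjusted p = 0.936), -0.03 without both arrays 2 and -0.42 in the 90, of which the last 2 were not tested.

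KIF11, the motor that pushes spindle poles apart, was at 8.76 to 9.50 in DMSO (median 9.23) and at 8.57 to 9.25 in R1881 (median 8.99). It was at 8.32, 7.05 and 8.41 in Apigenin and at 8.55, 8.74 and 8.25 in Mifepristone. Spironolactone arrays were at 8.54, 6.63 and 8.76 and Trenbolone arrays at 9.19, 6.84 and 8.91. Only Apigenin lay wholly below the R1881 arrays. The Apigenin difference was -1.04 without both arrays 2 of the other chemicals (SE 0.25, adjusted p = 0.00679) and -0.64 in the 90 arrays (SE 0.18, adjusted p = 0.0129). The other kept KIF11 probe was not called under Spironolactone, Trenbolone or Apigenin in any fit. AURKA, the kinase of the spindle poles, was at 9.80 to 10.59 in DMSO (median 10.32) and at 9.66 to 10.36 in R1881 (median 10.01). Apigenin arrays were at 10.04, 10.01 and 9.59, Mifepristone arrays at 9.10, 9.96 and 9.71, Spironolactone arrays at 9.24, 6.75 and 9.35 and Trenbolone arrays at 9.61, 6.76 and 10.35. Spironolactone was below all R1881 arrays in all 3, and the other chemicals overlapped them. AURKA fell under Spironolactone by 1.57 with all arrays (SE 0.35, adjusted p = 0.00094) and by 0.41 in the 90 (SE 0.11, adjusted p = 0.00854).

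UBE2C was at 11.37 to 11.73 in DMSO (median 11.52) and at 11.02 to 11.68 in R1881 (median 11.29). It was at 11.37, 11.01 and 10.97 in Apigenin and at 11.05, 11.24 and 10.78 in Mifepristone. Spironolactone arrays were at 10.62, 7.48 and 10.79 and Trenbolone arrays at 11.48, 9.15 and 11.57. Spironolactone lay below all R1881 arrays, with array 2 far from the others, and of Trenbolone only array 2 did. UBE2C fell under Spironolactone by 1.68 with all arrays (SE 0.32, adjusted p = 0.000161), by 0.61 without both arrays 2 (SE 0.17, adjusted p = 0.0402) and by 0.51 in the 90 (SE 0.17, adjusted p = 0.0423). CDC25B was at 10.10, 9.86 and 9.90 in Apigenin and at 10.25, 10.13 and 10.36 in Mifepristone. It was at 9.80, 6.67 and 10.10 in Spironolactone and at 10.16, 6.71 and 10.25 in Trenbolone. Array 2 of Spironolactone and of Trenbolone lay far below all others, and each chemical had at least 1 array inside the R1881 range. The Spironolactone difference of -1.30 (SE 0.37, adjusted p = 0.00886) was -0.21 without array 2, where it was not called.

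**Figure D3:**
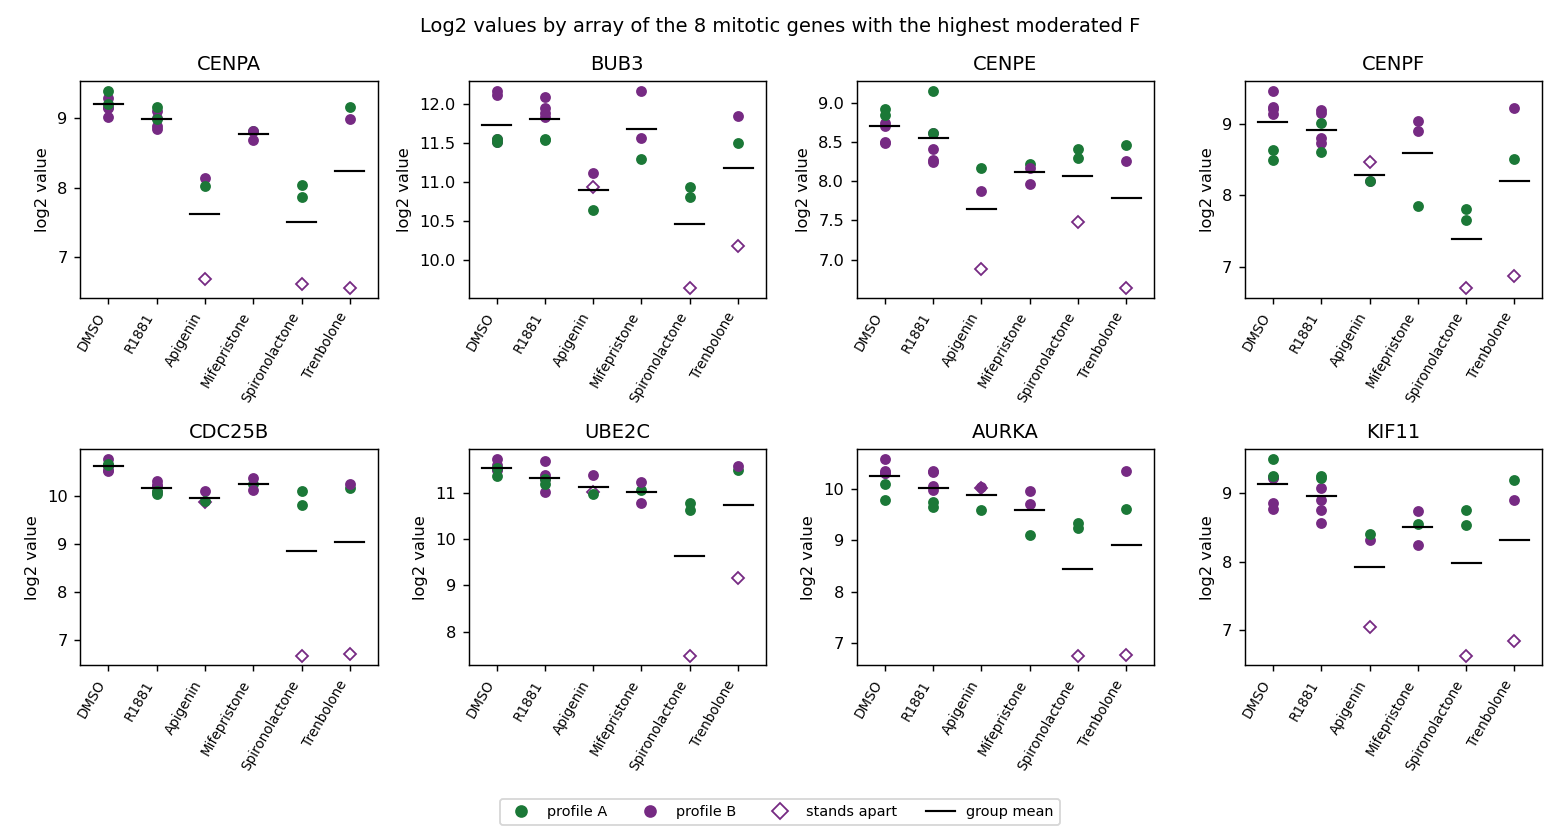
Log2 value of each array for CENPA, BUB3, CENPE, CENPF, CDC25B, UBE2C, AURKA and KIF11, a panel each, in DMSO, R1881, Apigenin, Mifepristone, Spironolactone and Trenbolone. CENPA shows all arrays of Apigenin, Mifepristone and Spironolactone below the R1881 arrays, and in Trenbolone array 2 alone at 6.55.

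Trenbolone, a synthetic androgenic steroid, gave calls only while its array 2 was kept. With all arrays 6 of 42 members fell (CDC25B, AURKA, PRC1, TOP2A, CDCA5 and CENPE), where 10.2% of all genes were called and 3.63% were called lower, and 41 members were lower with a median of -0.64 (-0.02 with cyclic loess). The largest were CDC25B at -1.12 (SE 0.37, adjusted p = 0.042) and AURKA at -1.12 (SE 0.35, adjusted p = 0.031), and the smallest CENPE at -0.77 (SE 0.24, adjusted p = 0.0328). In 0 of 42 members did all 3 arrays lie below all R1881 arrays, a pattern met by 0.468% of all genes. Without both arrays 2 the median was 0.05 and limma called 0 members, where 0.00538% of all genes were called, and in the 90 arrays it called 0 with 1 at an unadjusted p under 0.05 (0.0215% of all genes called). Of 42 members 25 changed sign when array 2 was left out, and 4 were lower than the R1881 mean in both array 1 and array 3. With cyclic loess 0 members were called. The count was 21 without array 1, 20 without array 3, and 3 without R1881 array 1b or 2b. The shares of all genes called in these settings are not given here, so these counts need not be particular to the members.

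Apigenin, a plant flavonoid, had all 3 arrays below all R1881 arrays in 7 members of several roles (CENPA, KIF11, CENPE, BUB3, CENPF, CCNB2 and NUSAP1), a pattern met by 4.37% of all genes. All 3 arrays lay above in CDCA5 and BIRC5 (1.89% of all genes). Of the 5 kinetochore genes, NDC80 and NUF2 did not show either pattern. With all arrays CENPA, CENPE and BUB3 fell, 3 of 42, where 1.41% of all genes were called and 0.942% were called lower, and 33 members were lower with a median of -0.26. Without both arrays 2 of Spironolactone and Trenbolone, 5 members were called lower, KIF11 and CCNB2 besides the 3, where 3.66% of all genes were called and 2.58% were called lower. In the 90 arrays, without Apigenin array 2, 7 were called lower and 1 higher, where 6.66% of all genes were called and 3.8% were called lower. CCNB2 was at 9.40, 9.46 and 9.23 in Apigenin and fell by 0.59 there (SE 0.14, adjusted p = 0.0024). CENPF fell by 0.64 (SE 0.20, adjusted p = 0.0365) and KIF20A, the kinesin that brings the passenger complex to the midzone, by 0.37 (SE 0.12, adjusted p = 0.0452). CDCA5, sororin, which guards sister chromatid cohesion, rose by 0.51 (SE 0.13, adjusted p = 0.00914). With all arrays and only Apigenin array 2 left out, 0 of the 3 were called, and CENPA was -0.92 (adjusted p = 0.515). Within profile A (1 array against 2) 31 members were lower, and within profile B (1 against 4) 26 were.

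The other 25 chemicals had 0 called combinations of member and chemical by limma with all arrays, where 0.0646% of all their gene tests were called. In the 90 arrays there were 8, where 0.315% were called, and CDC25B accounted for 3. It was at 10.64, 10.82 and 10.85 in Procymidone, 10.58, 10.79 and 10.52 in Bicalutamide and 10.69, 10.57 and 10.59 in Fenitrothion. All of these arrays lay above all R1881 arrays, in the range of the DMSO arrays or just over it. The differences from R1881 were 0.61 for Procymidone (SE 0.11, adjusted p = 0.000196, 0.711% of all genes called), 0.49 for Bicalutamide (SE 0.11, adjusted p = 0.00914, 0.425%) and 0.46 for Fenitrothion (SE 0.11, adjusted p = 0.016, 0.549%). Of these 3, Procymidone and Fenitrothion are pesticides and Bicalutamide a nonsteroidal antiandrogen drug.

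Over all 28 chemicals in the 90 arrays, the CDC25B mean was above that of R1881 in 23, and 42 of 78 chemical arrays lay above all R1881 arrays while 5 lay below all of them. In order, the groups with the highest means were Procymidone at 10.77, Bicalutamide at 10.63, DMSO and Fenitrothion at 10.62, Tebuconazole at 10.59, Linuron at 10.55 and Vinclozolin at 10.54. R1881 was at 10.16, and the lowest was Spironolactone at 9.95, with Apigenin next above it. Neighbouring groups in this order differed by less than the range of the DMSO arrays. Since all chemicals share the R1881 arrays, a low R1881 mean would place many of them above it. BUB3 ran the other way, with 1 of 28 chemicals above R1881 and 30 of 78 arrays below all R1881 arrays. CCNB2 was above R1881 in 22 of 28, and KIF20A in 5 of 28.

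**Figure D4:**
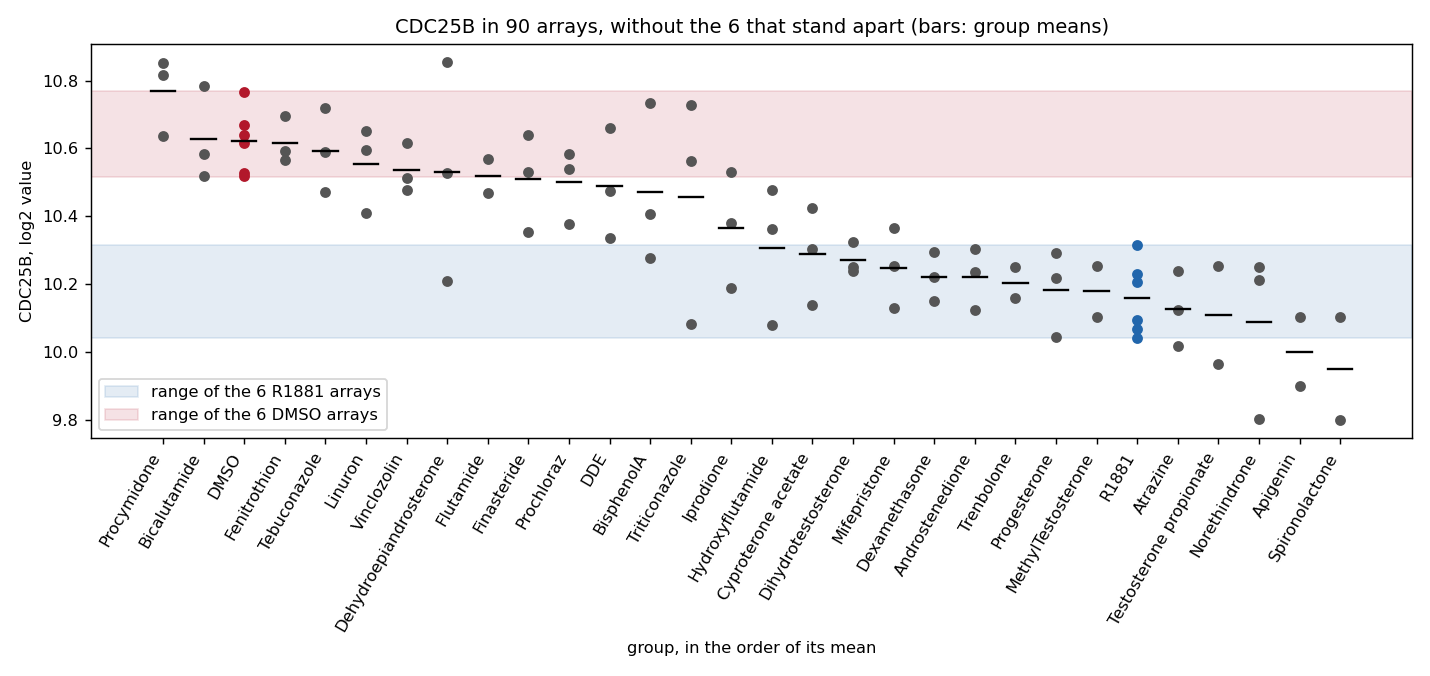
Log2 value of CDC25B in the 90 arrays, by group in the order of the group means, with the ranges of the DMSO arrays (10.52 to 10.77) and of the R1881 arrays (10.04 to 10.32) shaded. Arrays of Procymidone, Bicalutamide and Fenitrothion lie wholly above the R1881 range.

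Mifepristone, a progesterone and glucocorticoid receptor antagonist, had 3 called members in the 90 arrays, where 0.549% of all genes were called. KIF20A was at 8.98 to 9.68 in R1881 (median 9.53) and at 8.22, 9.22 and 8.89 in Mifepristone, and it fell by 0.64 (SE 0.10, adjusted p = 2.45e-05). Arrays 1 and 3 were below all R1881 arrays and array 2 was inside their range. AURKA fell by 0.43 (SE 0.09, adjusted p = 0.00754), next to CENPE given above. With all arrays limma called 0 members under Mifepristone, with 0 at an unadjusted p under 0.05 (0.0485% of all genes called), and 35 of 42 were lower with a median of -0.22. CENPE, PRC1 and CENPA had all 3 arrays below all R1881 arrays, a pattern met by 0.754% of all genes. Progesterone, a steroid hormone, had KIF20A at 9.28, 9.20 and 9.04, with a difference of -0.43 in the 90 arrays (SE 0.10, adjusted p = 0.0327, 0.409% of all genes called). All 3 of those arrays lay inside the R1881 range. Under Procymidone KIF2C, the kinesin that depolymerises microtubules, was at 8.94, 9.17 and 8.60 and rose by 0.43 (SE 0.10, adjusted p = 0.0126). Testosterone propionate had 34 of 42 members lower with all arrays and 0 called, with 7 at an unadjusted p under 0.05 (0.323% of all genes called). Without both arrays 2 of Spironolactone and Trenbolone its CENPE difference of -0.72 was called (SE 0.20, adjusted p = 0.0226), where 6.64% of all genes were, and it was not called once its own array 2 was left out.

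**Figure D5:**
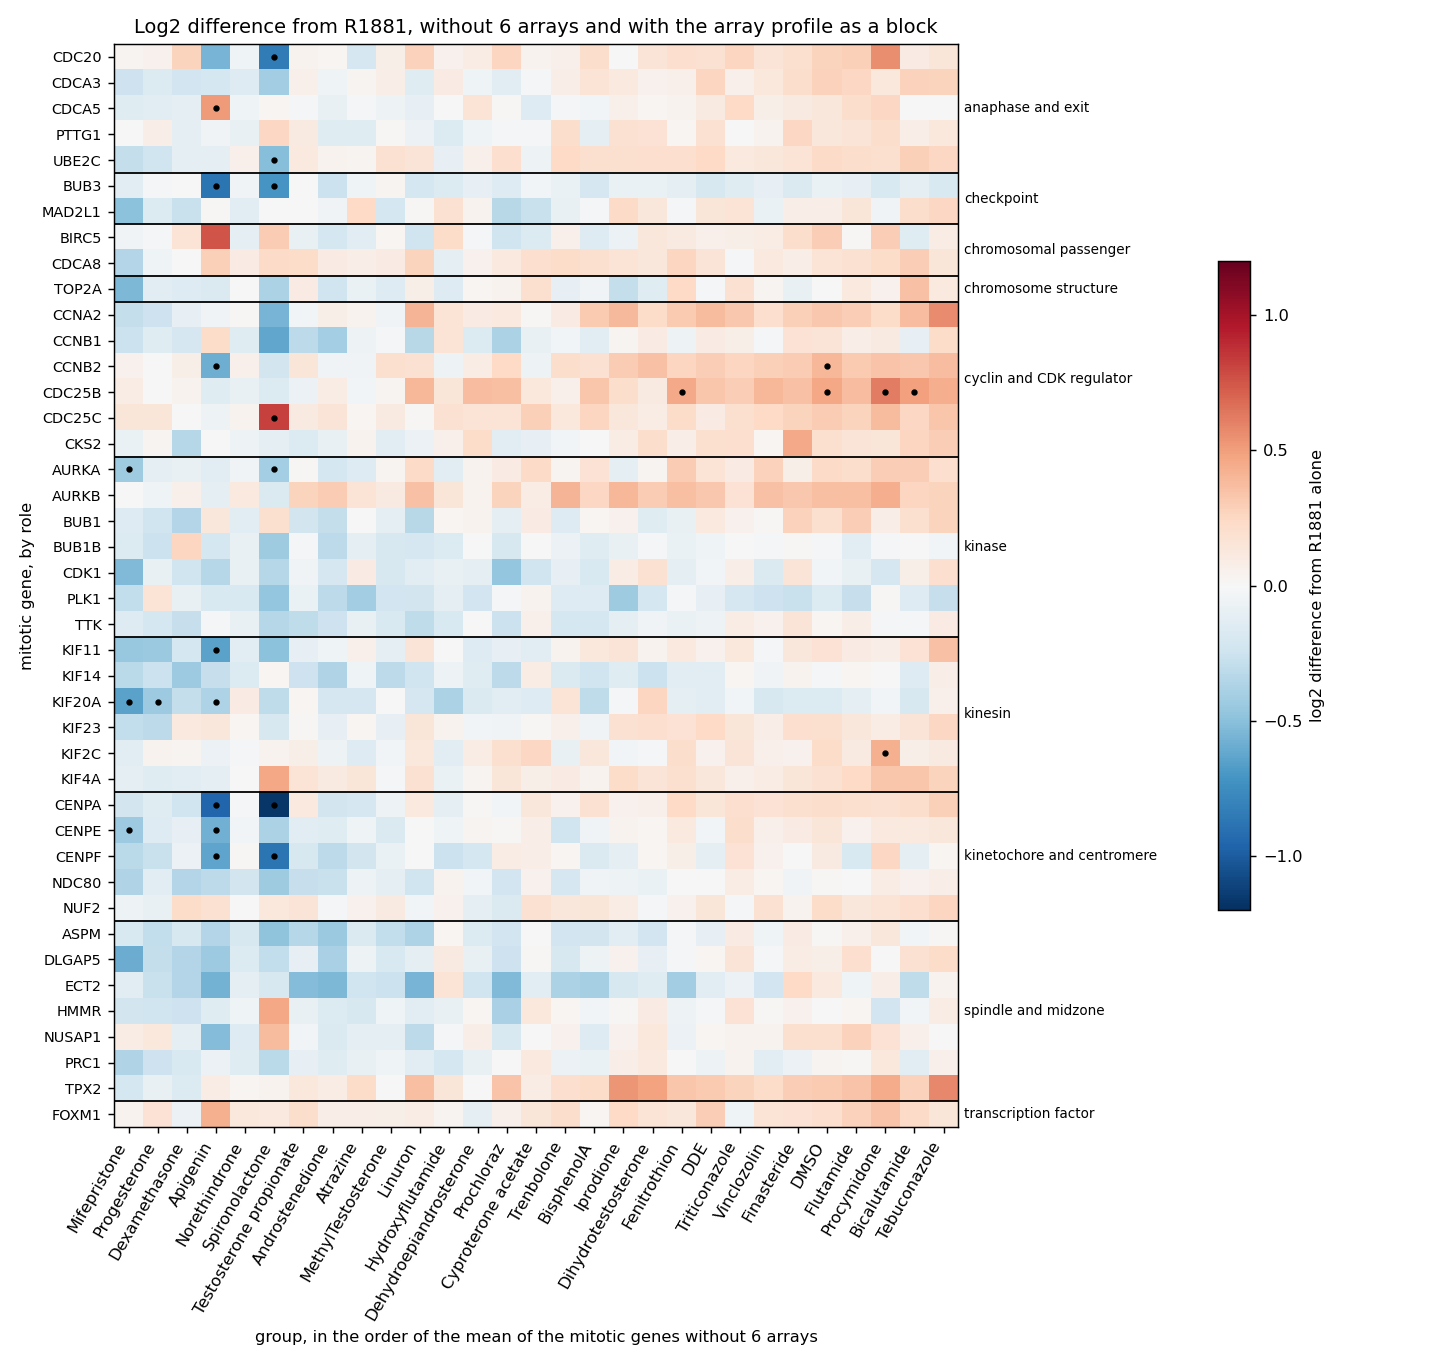
Difference from R1881 on the log2 scale, in the 90 arrays with the profile as a term, for the 42 genes (lines) in DMSO and the 28 chemicals (columns), with dots where limma called the gene. Dots gather under Spironolactone (7) and Apigenin (8), CDC25B has dots under Procymidone, Bicalutamide, Fenitrothion and DMSO, and Trenbolone has 0.

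Related chemicals were compared directly in 5 pairs at equal dose, given with all arrays. Among these arrays are Flutamide array 3 and array 2 of Testosterone propionate and of MethylTestosterone, which stood apart. The pairs were Flutamide with its hydroxylated metabolite Hydroxyflutamide, the dicarboximide fungicides Vinclozolin, Procymidone and Iprodione with each other, and the androgens Testosterone propionate and MethylTestosterone. Limma called 0 members in any pair, with 0 at an unadjusted p under 0.05 in 4 pairs and 2 in the last. The background was 0% of all genes for Flutamide against Hydroxyflutamide and for Vinclozolin against Procymidone, 0.0215% for Vinclozolin against Iprodione, 0.0323% for Procymidone against Iprodione and 0.113% for the last pair. The largest member difference between Flutamide and Hydroxyflutamide was 0.66 in CKS2 (95% interval -0.68 to 2.00). Between Vinclozolin and Procymidone it was -0.69 in CDC20 (-1.63 to 0.24), and between Vinclozolin and Iprodione -0.36 in KIF20A (-1.12 to 0.40). Procymidone and Iprodione differed most in CDC20, by 0.56 (-0.37 to 1.49). Testosterone propionate and MethylTestosterone differed by -0.76 in TTK, a checkpoint kinase (-1.43 to -0.10, adjusted p = 0.464), and by -0.79 in MAD2L1 (-2.52 to 0.94). The intervals are wide, and a missed threshold does not show that the chemicals of a pair act alike.

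All members are given next by role, as the Spironolactone difference from R1881 with all arrays and without array 2, and then the Trenbolone difference likewise. Of the 5 genes of anaphase and exit, CDC20 was at -1.90 and -1.42 under Spironolactone and at -0.33 and -0.09 under Trenbolone. UBE2C was at -1.68 and -0.61, and at -0.58 and 0.22. PTTG1, securin, which holds separase inactive, was at -0.79 and 0.21, and at -0.46 and 0.20. CDCA3, a trigger of mitotic entry, was at -0.63 and -0.12, and at -0.46 and 0.16, and CDCA5 at -0.50 and -0.12, and at -0.86 and -0.06. CDC20 and UBE2C thus had the largest falls of this role in arrays 1 and 3 of Spironolactone. Without array 2, UBE2C was called and CDC20 was not, and with the profile as a term CDC20 was at -0.84. Under Trenbolone no member of this role was called without array 2. Of the checkpoint genes, BUB3 was at -1.34 and -0.94, and at -0.63 and -0.14, while MAD2L1, which restrains CDC20, was at -0.22 and 1.05, and at -0.86 and 0.17.

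Among the 7 kinases, PLK1, which acts at poles, kinetochores and midzone, was at -1.18 and -1.08 under Spironolactone and at -0.48 and -0.31 under Trenbolone. AURKA was at -1.57 and -0.73, and at -1.12 and -0.04, and AURKB, the kinase of the passenger complex, at -1.28 and -0.31, and at -0.78 and 0.37. CDK1, the master kinase of mitosis, was at -0.54 and 0.71, and at -0.15 and 0.17. In contrast to PLK1, which hardly depended on array 2, the sign of CDK1 turned under both chemicals. The checkpoint kinase BUB1 was at -0.00 and 0.77, and at -0.51 and -0.01, and its partner BUB1B at 0.00 and -0.24, and at 0.77 and -0.02. TTK was at -0.29 and 0.05, and at -0.38 and -0.11. BUB1B was the 1 member that was higher under Trenbolone with all arrays, and this came from array 2 at 2.35 above the R1881 mean.

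Of the 6 cyclins and CDK regulators, CCNA2, the A-type cyclin of S phase and early mitosis, was at -0.98 and -0.14 under Spironolactone and at -0.34 and 0.21 under Trenbolone. CCNB1, the main cyclin of CDK1, was at -0.37 and -0.03, and at -0.61 and 0.12, and CCNB2 at -1.23 and -0.22, and at -0.90 and 0.21. All 3 cyclins were within 0.22 of R1881 once array 2 was left out, in a fit without the profile as a term. With the profile as a term, Spironolactone had the lowest difference of the 28 chemicals for CCNA2 (-0.56) and for CCNB1 (-0.62). For CCNB2 the lowest there was Apigenin (-0.59). None of these 3 cyclins was called under Spironolactone in that fit. CDC25B was at -1.30 and -0.21, and at -1.12 and 0.04, and CDC25C at 0.25 and 0.81, and at -0.17 and 0.13. CKS2, a small CDK-binding subunit, was at -0.74 and 0.58, and at -1.04 and 0.14. FOXM1, a transcription factor of G2 and mitotic genes, was at -0.51 and 0.03, and at -0.26 and 0.19.

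For the 6 kinesins, KIF11 was at -0.99 and -0.32 under Spironolactone and at -0.65 and 0.08 under Trenbolone. KIF20A was at -1.29 and -0.67, and at -0.86 and 0.07. KIF2C was at -0.87 and -0.37, and at -0.75 and -0.20. These 3 motors kept their sign under Spironolactone when array 2 was left out. KIF14, which acts in cytokinesis, was at -0.16 and 0.42, and at -0.50 and -0.08, KIF23, of the centralspindlin complex, at -0.30 and 0.25, and at -0.29 and 0.17, and KIF4A, a chromosome-bound kinesin, at -0.77 and 0.16, and at -0.88 and 0.02. Of the 5 kinetochore genes, CENPA was at -1.50 and -1.05, and at -0.76 and 0.08, CENPE at -0.49 and -0.19, and at -0.77 and -0.19, and CENPF at -1.52 and -1.18, and at -0.71 and -0.05. NDC80 and NUF2 are subunits of the complex that grips microtubules. NDC80 was at -0.33 and -0.13, and at -0.37 and -0.13, and NUF2 at 0.30 and 0.63, and at -0.04 and 0.26.

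In the group of 7 spindle and midzone genes, PRC1, which bundles midzone microtubules, was at -1.33 and -0.45 under Spironolactone and at -0.98 and -0.11 under Trenbolone. TPX2, an activator of AURKA, was at -0.41 and 0.06, and at -0.55 and 0.21. The spindle proteins ASPM, DLGAP5, NUSAP1 and HMMR did not move together. ASPM was at -0.38 and -0.29, and at -0.50 and -0.18, and DLGAP5 at -0.67 and 0.26, and at -0.89 and -0.05. NUSAP1 was at -0.79 and 0.40, and at -0.92 and 0.05, and HMMR at 0.74 and 0.79, and at -0.30 and 0.11. ECT2, which activates RhoA for cytokinesis, was at -0.35 and 0.44, and at -0.73 and -0.22. For the passenger complex, BIRC5 (survivin) was at 0.14 and 0.17, and at -0.68 and 0.03, and CDCA8 (borealin) at -1.01 and -0.12, and at -0.83 and 0.13. TOP2A, the topoisomerase that untangles chromatids, was at -1.01 and -0.71, and at -0.91 and -0.18. Of the 42 members, 27 kept their sign without array 2 under Spironolactone and 17 did under Trenbolone.

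The members also varied with the profile of the arrays. The median of profile A arrays was above that of profile B arrays by 1.64 for MAD2L1, 1.59 for CDK1, 1.02 for CKS2, 0.98 for CCNB1, 0.97 for ECT2 and 0.91 for BUB1. MAD2L1, CDK1, CKS2 and ECT2 were among the most variable genes that set the profiles. Their differences are therefore in part built into the split and do not test it. CCNB1 and BUB1 were not among those genes. Profile A minus profile B was -1.0 for CDC20, -0.94 for PLK1, -0.62 for KIF20A and -0.61 for KIF2C, and 25 of 42 members were higher in A. Since Spironolactone arrays 1 and 3 are both of profile A and 4 of the 6 R1881 arrays are of profile B, members such as CDC20 and PLK1 differ between these arrays with the profile as well as with the chemical. This overlap also holds for MAD2L1, CDK1, CKS2, CCNB1, ECT2 and BUB1, which were higher in profile A. With the profile as a term, CDC20 was at -0.84 and still called, and PLK1 was not called.

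Beside the probes used, 22 other probes of 18 members were kept. Under Spironolactone with all arrays, 16 of them had the sign of the probe used and 6 the opposite sign (of BUB3, MAD2L1, BIRC5, NUSAP1, PTTG1 and HMMR). In a fit of every named probe, where 15.4% were called under Spironolactone, other probes were called lower for AURKA (-1.49, adjusted p = 0.00159), DLGAP5 (-1.22, adjusted p = 0.0345) and UBE2C (-0.55, adjusted p = 0.019), and higher for CDC25C (1.77, adjusted p = 2.63e-05). Without both arrays 2 the CDC25C probe alone was still called, at 0.93 (adjusted p = 0.0492). In the 90 arrays it was at 0.57 (adjusted p = 0.00218), and another CDC25C probe was also called at 0.57 (adjusted p = 0.0386). There DLGAP5, UBE2C and KIF23 (-0.33, adjusted p = 0.0028) were called lower and AURKA was not. Another BIRC5 probe was called higher under Apigenin (1.18, adjusted p = 0.0412, 1.02% called) and under Trenbolone (0.93, adjusted p = 0.0492, 9.14% called). The Apigenin call was also made without both arrays 2 of Spironolactone and Trenbolone and in the 90 arrays, and the Trenbolone call in neither. A DLGAP5 probe was called lower under Apigenin without both arrays 2 (-1.22, adjusted p = 0.0462) and in the 90 arrays (-0.82, adjusted p = 0.0189).

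Of 62 measured genes of a second list of mitotic genes, 14 fell and 2 rose under Spironolactone with all arrays, with a median of -0.41, where 9.88% of all genes were called lower and 17.7% in all. The largest falls were in the condensin subunit NCAPD3 (-1.60), the CENPA chaperone HJURP (-1.51), the checkpoint gene ZW10 (-1.48), PIMREG (-1.34), the microtubule polymerase CKAP5 (-1.22), CENPN (-1.11), the kinase MELK (-1.10), RACGAP1 (-1.07), GTSE1 (-1.06) and NCAPG (-1.03). SGO1, which protects cohesin, and the kinesin KIF18A rose, by 0.79 and 1.17. Without both arrays 2 limma called 0 of the 62, with 12 at an unadjusted p under 0.05, and in the 90 arrays 8 lower and 2 higher, where 8.74% of all genes were called. Under Trenbolone 4 were lower (MELK, CKAP5, ZW10 and PLK4) and 2 higher (CDC27 and FZR1) with all arrays, where 10.2% of all genes were called, and 0 were called without both arrays 2, with 0 at an unadjusted p under 0.05. Under Apigenin NCAPD3 (-1.37) and SPC25 (-0.69), a subunit of the NDC80 complex, fell with all arrays (1.41% of all genes called) and 6 fell in the 90 (6.66%). Between R1881 and DMSO limma called 0 with all arrays. In the 90 arrays KIFC1 fell by 0.42 and NCAPD3 rose by 0.93, where 0.985% of all genes were called. NCAPD3 and PIMREG fell under Mifepristone in the 90 arrays, by 0.90 and 0.46, where 0.549% of all genes were called.

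Of 21 genes of S phase, 5 fell under Spironolactone with all arrays (CCNE1, CDT1, MCM7, MCM3 and MCM6) and GINS1 rose, and under Trenbolone 6 fell and E2F1 rose, where 17.7% and 10.2% of all genes were called. Of the 21, limma called 0 under either without both arrays 2, with 5 at an unadjusted p under 0.05 under Spironolactone and 0 under Trenbolone. The medians went from -0.65 to -0.05 and from -0.86 to -0.07. In the 90 arrays 1 S phase gene was called lower and 2 higher under Spironolactone, where 8.74% of all genes were called. Under Trenbolone 0 were called there, and the medians were -0.06 and -0.07. Of 22 genes of the cell cycle brakes and entry, MYC had the largest change under Spironolactone, at -3.28 with all arrays, -2.84 without both arrays 2 and -2.59 in the 90 arrays. Of 10 luminal genes 5 fell under Spironolactone with all arrays, FOXA1 (-3.16), SPDEF (-2.45), TMPRSS2, HOXB13 and KLK2, and KLK3 rose by 0.42. Of the 10, 4 were called lower without both arrays 2 (FOXA1, SPDEF, TMPRSS2 and KLK2) and 0 higher, where 2.35% of all genes were called, and the median went from -1.25 to -0.64. Among markers of other cell types, the stromal COL3A1 (0.53), the immune CD14 (0.82) and PTPRC (0.41) and the neuroendocrine CHGA (0.94) rose in the same comparison and the basal KRT15 fell by 0.88. None of these 5 calls was made without both arrays 2 or in the 90 arrays, where the neuroendocrine ENO2 rose by 1.05. With all arrays, 4 of 6 stromal markers were higher under Spironolactone and 2 lower, with a median of 0.08. Of 4 immune markers 2 were higher and 2 lower, and all 4 basal markers were lower. The neuroendocrine list had 3 measured genes. R1881 against DMSO raised KLK2, an androgen-induced luminal gene, by 1.22, while the mitotic members had the values above.

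The genes outside the list whose 30 group means followed the mean of the members most closely were FEZ2 (r = 0.935) and NCAPG, a condensin subunit (r = 0.928), then TFRC, PUM2, ADNP2, MRPL21, LYSET, NUP107, SON and GOLGA3 (r = 0.918). Without the 6 arrays that stood apart they were CPVL (r = 0.847), TNFSF10, FAM83D (r = 0.832), NCAPG, CEP152, GRAMD2B, S100PBP, SP8, PELI2 and TFRC (r = 0.785). These Pearson correlations describe 30 group means that share arrays of the same profiles, and NCAPG and TFRC stand in both lists.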

How the data were processed

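The range of the deposited values marks them as log2 intensities, from 6.3157 to 14.152, and array medians lay between 6.7211 and 6.7212, so the values the authors deposited were used without further normalization. Per the series' design text, arrays were read with iScan 3.3.28 and handled in GenomeStudio and Partek. The submitters' processing notes also name limma. How background was corrected is not stated in those sources, and no detection p-value was used, so how far a dim probe lies above background is not known. The number of arrays limits the precision.

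Of 48107 probes, 30113 carry 1 symbol in the platform annotation and 8 several, and the rest are unnamed here. Entrez identifiers matched for 30074 and 0 symbols changed. The 43820 probes above their array's median in at least 3 arrays were kept (4287 were dropped), and each of 18571 genes was read from its brightest kept probe. There were 191 missing values, in 19 genes and 0 members. Group means were fitted to 96 arrays with limma 3.58.1 (R 4.3.3, with version 1.17.8 of data.table), with 66 residual degrees of freedom, Benjamini-Hochberg adjustment over all genes of a comparison and a threshold of 0.05. The pipeline was tested on simulated data.

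The members, gene lists and tests were chosen with earlier results of these data known. Every member is named with its Spironolactone and Trenbolone differences, every called member by comparison, and the 8 members of highest moderated F by array. Called genes of other lists are named up to 10 by size, promoters with the CHR letters in the order of F, and the 10 genes most like the mean of the members. Arrays that stood apart were those with a correlation under 0.92 with the median of their profile, a bound set after the values were seen, since 1 array lay at 0.909. Alternatives were no filter, the mean of a gene's probes, cyclic loess, the array number as a block, averaged control arrays, arrays left out and every probe in 1 fit. Same-numbered arrays did not deviate together in every comparison, so the numbers were not taken as pairs. For R1881 against DMSO they did deviate together. Some genes are not analysed here.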

Additional observations from a re-analysis of the deposited data

Results flagged for a closer look

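2 control arrays held a member far from the other arrays of their group. TPX2, the activator of AURKA, was at 8.70 in R1881 array 2b, where the group median was 9.11 and the next array 9.07, so the gap took up 0.652 of the range of the 6 arrays. CDC25C, the phosphatase, was at 7.09 in R1881 array 1b, where the median was 7.54 and the next array 7.52, a gap of 0.825 of the range. Chance gives such a gap in about 1 of 20 groups, and it was met in 2 of 86 (2.33%). For CDC25C, the low array is 1 of the 6 behind the lack of overlap between R1881 and DMSO on the probe used.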

How the results depend on the processing

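The directions of the main comparisons rest on few arrays and on the probe chosen. Without arrays 2 of Spironolactone and Trenbolone, 5 members were called under Spironolactone (15 with all arrays), 0 under Trenbolone (6), 5 under Apigenin (3) and 1 under the other 25 chemicals (0). In the 90 arrays with the profile as a term, these counts were 7, 0, 8 and 8, with 2 for R1881 against DMSO (0) and 10 by the moderated F test (2). Cyclic loess gave 0 under Trenbolone, 6 under Apigenin and 8 by F. Over all genes it called 306 higher and 339 lower under Apigenin, and 1106 higher and 13 lower under Trenbolone. With control arrays averaged by number, the counts were 0 under Trenbolone, 0 under Apigenin and 1 by F, and with the mean of a gene's probes 1 under Apigenin and 0 by F. With the array number as a replicate block, 0 members were called for R1881 against DMSO, 16 under Spironolactone, 8 under Trenbolone, 3 under Apigenin, 0 under the other chemicals, 0 in the pairs and 3 by F. The same-number correlations of deviations ran from -0.70 to 0.96 and were all over 0.1 in 13 of 29 comparisons, and in 8 each array was closest to its own number. R1881 against DMSO was among these 8, with correlations of 0.72, 0.72 and 0.89. With that block and the 6 arrays left out, an alternative chosen after seeing the data, the counts were 2, 8, 0, 5 and 4, and 7 by F. Leaving out 1 array at a time gave 0 to 0 members for R1881 against DMSO and for the pairs, 2 to 21 under Spironolactone (2 without its array 2), 0 to 21 under Trenbolone, 0 to 3 under Apigenin (0 without its array 2), 0 to 1 under the other chemicals (1 without Testosterone propionate array 1) and 1 to 5 by F (1 without Spironolactone array 2 or Apigenin array 3, 4 without Spironolactone array 3, 5 without Trenbolone array 3). 3 Trenbolone differences turned positive. CDC25B was at 0.045 without arrays 2 or without Trenbolone array 2 (-1.72 to 0.045 with any 1 array left out), 0.056 in the 90 arrays and 0.090 with the block and the 6 arrays left out. AURKA was at 0.037 and 0.063 in the last 2 settings, and CDCA5 at 0.0046 in the last. Of 294 values of single members with 1 array left out, 246 kept their direction and side of the threshold, 46 lost the call, 1 gained it and 1 turned. No filter and the block kept all 32 such values. The cause of these changes was not tested. Where no share of all genes called is given beside a count here, its change need not be particular to the members. Detection above background is not known, so dim probes limit what can be read.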
